A study of Mus musculus with 12 samples.

Results

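The genes described here are regulators of mRNA decay, deadenylation and mRNA stability, taken by symbol from 2 lists of genes that differed between tdTomato- and tdTomato+ group-2 innate lymphoid cells (ILC2s) of the mouse lung. The symbols belong to the CCR4-NOT (Cnot), Pan, Pabp, Dcp, Xrn, Upf, Smg, Zfp36, Zc3h, Pum, Pcbp, Ago, Tnrc6, Ythd and Mettl families, with Btg1, Btg2 and Elavl1. They matched 43 of the 3439 listed genes. All 43 stood in the list of genes lower in tdTomato+ ILC2s, which holds 2906 genes, and 0 in the list of genes higher in these cells, which holds 533. Over all listed genes, 84.5% stood in the lower list, so a lower position was also the usual one for a listed gene of any kind. The authors report that non-coding transcripts, among them major satellite repeats, outweighed protein-coding ones in tdTomato+ ILC2s. What part this plays in the lower position of the genes described here was not tested.

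Both populations were sorted from lungs of male TIGIT-Cre-ERT2:Rosa26-LSL-tdTomato mice, and both carried the same alleles and the same treatment with papain and tamoxifen. Papain, a protease given through the nose, was the allergen. Cre-ERT2 is made together with GFP from the Tigit locus and is switched on by tamoxifen, so tdTomato marks cells that expressed Tigit while the drug was present, whether or not they still did when sorted. The authors report that tdTomato+ ILC2s kept TIGIT during and after papain, and that Tigit mRNA was comparable in both populations. The mice's age is not given in the labels. The labels name 4 RNA-seq libraries of tdTomato- and 4 of tdTomato+ ILC2s, and 2 ATAC-seq libraries of each, which are not analysed here. Each listed gene has 1 average log2 CPM (CPM, read counts relative to the total of the library) taken over the libraries of the authors' comparison. The level of a gene in a single library or in either population is not given by that average, and neither the depth of a library nor the spread between libraries is known. The authors' own fold changes were not used, so no difference in size between the populations is given. What follows uses the list a gene stands in, its average level and its annotated sequence. The libraries were made from sorted cells, and CPM is relative to the total of a library, so RNA per cell cannot be read from it. In bulk samples such as these, a change in the mix of sorted cells and a change within the cells cannot be told apart.

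Markers of the labelled cell type and of other cell types were looked up in the lists, which hold only genes that differed between the populations. All 8 ILC2 markers looked up were listed as lower, with average log2 CPM from 6.47 (Klrg1) to 9.98 (Il1rl1, the IL-33 receptor), so these transcripts were measured in the libraries. Of all listed genes, 84.5% were lower. Of 6 T cell markers, Cd3g was listed as lower with an average log2 CPM of 6.12 and the other 5 were not listed. No marker of NK cells (0 of 3), B cells (0 of 3), macrophages (0 of 5) or epithelium (0 of 2) stood in either list. A gene that is not listed may still be expressed, so the lists cannot check the identity of the cells. For the lineage markers they examined, the authors report low expression and no statistical difference between the samples.

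Most mRNAs are destroyed from their 3′ end first. The CCR4-NOT and PAN2-PAN3 complexes shorten the poly(A) tail, the cap is then removed by DCP2 with its helper DCP1, and exonucleases digest the body of the mRNA. RNA-binding proteins choose the targets: the ZFP36 family binds AU-rich elements in 3′ UTRs and recruits CCR4-NOT, ELAVL1 (HuR) binds similar elements and protects the mRNA, Argonaute proteins with TNRC6 act for microRNAs, and YTHDF proteins read N6-methyladenosine. In lymphocytes these factors are known for limiting cytokine mRNAs and for keeping resting cells quiescent.

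The AU-rich nonamer TTATTTATT, the preferred site of the ZFP36 family, was searched on the sense strand of the 3′ UTR of 1 annotated transcript per gene (GENCODE M21, GRCm38). It was found in 5 of the 43 members, and these were Zfp36, Zfp36l1 and Zfp36l2, which bind such elements, with Elavl1, which also binds them, and Ago2. The sites of the first 4 are shown because they lie in the mRNAs of the AU-rich element binding proteins themselves. Those of Ago2, a gene for small-RNA silencing, are shown because it was the only other member with the nonamer. Each is given 5′ to 3′ in DNA letters, in its own 3′ UTR, with the nonamer in capitals.
Zfp36, chr7:28376950-28376979, minus strand: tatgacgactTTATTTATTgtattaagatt
Zfp36l1, chr12:80108166-80108195, minus strand: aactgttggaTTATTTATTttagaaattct
Zfp36l2, chr17:84184913-84184942, minus strand: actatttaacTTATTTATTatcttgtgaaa
Elavl1, first match, chr8:4285787-4285816, minus strand: gtcatgaaaaTTATTTATTtatttatttat
Elavl1, last match, chr8:4285741-4285770, minus strand: gtttatttatTTATTTATTacttgtgagtc
Ago2, first match, chr15:73105732-73105761, minus strand: caaatggaatTTATTTATTcttccattgct
Ago2, second match, chr15:73097838-73097867, minus strand: ataatactttTTATTTATTttgtgcctttt

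Zfp36, Zfp36l1 and Zfp36l2 had 1 nonamer each. Elavl1 had 8 overlapping or neighbouring ones between positions 3794 and 3840 of its 3′ UTR of 4218 bases, counted from the base after the stop codon, in a run that repeats the same letters. Ago2 had 2 in a much longer 3′ UTR of 11064 bases. The nonamer occurred in 11.6% of members, against 6.46% of 2862 lower genes with an annotated 3′ UTR and 6.92% of 20569 annotated protein-coding genes. In 470 protein-coding genes of the higher list its share was above that of the members, 14.3%. Zfp36, Zfp36l1 and Zfp36l2 are annotated paralogs, so their elements are not independent of each other.

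The length of a 3′ UTR raises the chance that it holds any short motif. The median 3′ UTR had 1623 bases in the members, 1115 in all lower genes and 802 in all annotated protein-coding genes. In the protein-coding genes of the higher list it had 1664.5. Among 3′ UTRs under 1000 bases, 1 of 16 members held the nonamer, against 2.59% of 1312 lower genes. From 1000 to 2000 bases, 2 of 10 members did, against 5.97% of 687 lower genes. From 2000 to 4000 bases, 0 of 11 members did, against 10.4% of 643 lower genes, and in longer ones 2 of 6 members did, against 19.5% of 220 lower genes. The members were therefore above the lower genes in 3 of these 4 length classes, on counts of 2 or fewer in each. The shorter pentamer ATTTA, which is contained in the nonamer, occurred in 40 of 43 members (93.0%) and in 71.0% of lower genes. Per kb of 3′ UTR the values were closer, 2.24 pentamers in the members and 1.91 in the lower genes. The protein-coding genes of the higher list had 2.28. Pabpc4, Zc3h18 and Ythdf1 were the members without a pentamer.

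**Figure D1:**
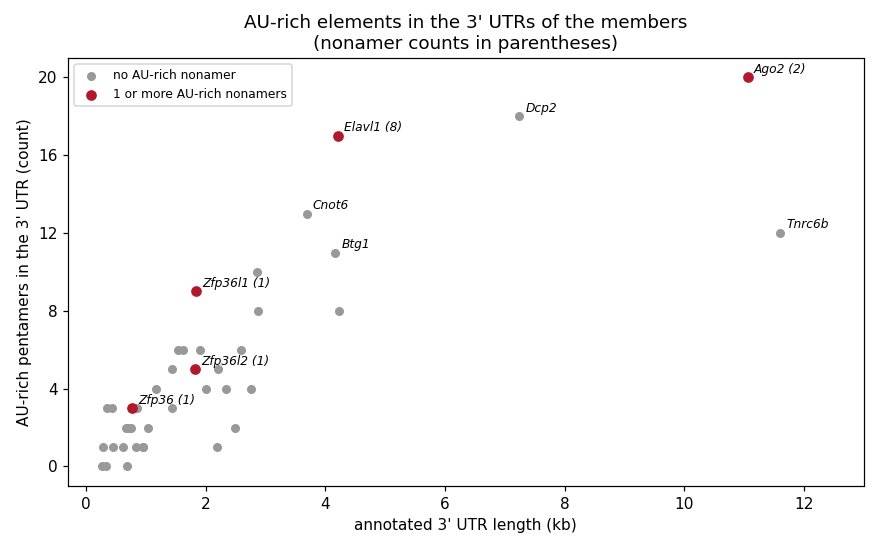
Number of AU-rich pentamers in the annotated 3′ UTR (vertical axis) against the length of that 3′ UTR in kb (horizontal axis), 1 point for each of 41 members. The 5 members with a nonamer are in red with their nonamer count in parentheses, and Elavl1 holds 17 pentamers in 4218 bases where Tnrc6b holds 12 in 11609.

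The Pumilio element TGTANATA, searched in the same way and with N as any base, was found in 13 of 43 members (30.2%), against 29.5% of lower genes and 21.6% of annotated protein-coding genes. Per kb of 3′ UTR there were 0.208 elements in the members, 0.279 in the lower genes and 0.238 in all annotated protein-coding genes, so the order turned with length taken into account. Protein-coding genes of the higher list were above the members by both measures, at 43.2% and 0.297 per kb. By length class, 18.8% of members and 12.7% of lower genes held the element under 1000 bases, 40.0% and 31.4% from 1000 to 2000 bases, 27.3% and 47.9% from 2000 to 4000 bases, and 3 of 6 members and 69.5% of lower genes above that. Pum2, whose protein binds this element and recruits CCR4-NOT, carried it in 2 places, as did Btg1, Zc3h4 and Zfp362. Tnrc6b had the most, with 4, of which 3 lay in a simple repeat of TG and TA. The elements of Pum2 are shown for the same reason as above, because the mRNA of a binding protein carries the site, with the 8 bases in capitals.
Pum2, first match, chr12:8750154-8750183, plus strand: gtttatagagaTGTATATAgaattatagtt
Pum2, second match, chr12:8750407-8750436, plus strand: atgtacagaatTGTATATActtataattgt

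The average level of the members was set beside that of all lower genes. Their median average log2 CPM was 6.65, with quartiles of 6.27 and 7.75, against 6.39, with quartiles of 5.80 and 7.11, for the 2906 lower genes. Of the 43 members, 30 were above the median of the lower genes and 17 above its upper quartile. Together the members' average CPM summed to 7169, which was 1.87% of the sum over all lower genes, and the 5 members with the largest average CPM made up 36.5% of it. These levels are not divided by length, and the members had longer coding sequences than the lower genes. The average log2 CPM of single genes below is a level not divided by length, and genes are ranked by log2 CPM per kb of coding sequence.

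**Figure D2:**
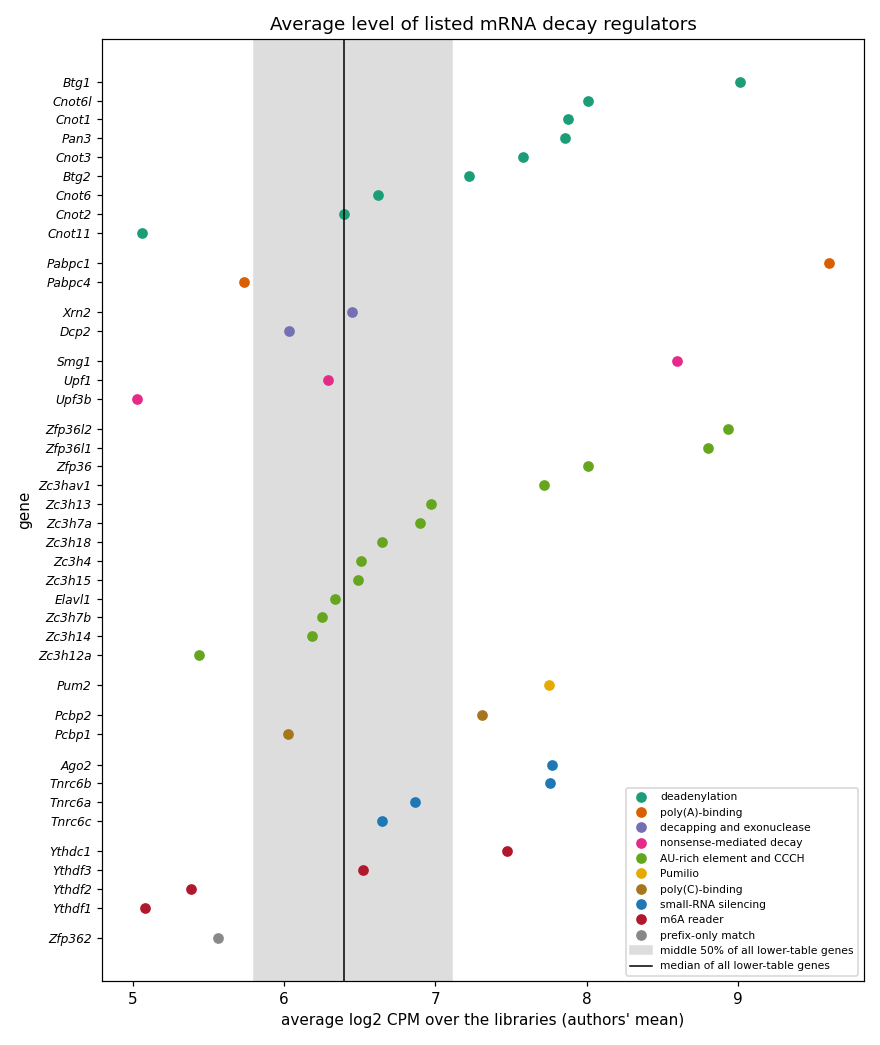
Average log2 CPM over the libraries (horizontal axis) of 41 of the members, in groups by role, 1 point a gene with no error since the files hold 1 average per gene. The grey band spans the middle 50% of all lower-list genes, from 5.80 to 7.11, and the line their median, 6.39. Pabpc1, Btg1 and the Zfp36 family lie to the right of the band, on this scale that is not divided by length.

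Deadenylation genes gave 9 members out of 15 annotated ones (60%), where 13.2% of all annotated protein-coding genes stood in the lower list. Btg1 and Btg2, antiproliferative proteins that bind the deadenylase CNOT7 or CNOT8 and bring it to mRNAs, were both listed. Btg1 had an average log2 CPM of 9.01 and ranked 39 per kb among 2844 lower genes. Btg2 had an average log2 CPM of 7.23 and ranked 167 per kb. The scaffold Cnot1 (7.88) and the regulatory subunits Cnot2 (6.40), Cnot3 (7.58) and Cnot11 (5.06) were listed with the related catalytic subunits Cnot6 (6.62) and Cnot6l (8.01), all as average log2 CPM. The remaining catalytic subunits, Cnot7 and Cnot8, were not listed, nor were Cnot4, Cnot9 and Cnot10. Of the PAN complex, Pan3, its RNA-binding subunit, was listed with an average log2 CPM of 7.85, and Pan2, its nuclease, was not. Why a gene is not listed cannot be told from the tables, so its direction is unknown.

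Poly(A)-binding proteins coat the tail and promote translation. Pabpc1 had an average log2 CPM of 9.60, or 775 CPM, and ranked 132 per kb among the lower genes and 3 among the members. Pabpc4 had 53.3 CPM. The other 7 annotated genes of this name, among them the nuclear Pabpn1, were not listed. In decapping and exonucleolytic decay, the decapping enzyme Dcp2 (average log2 CPM 6.03) and the nuclear exonuclease Xrn2 (6.45) were listed, but the activators Dcp1a and Dcp1b and the cytoplasmic exonuclease Xrn1 were not.

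Nonsense-mediated decay removes mRNAs with premature stop codons. The kinase Smg1, which phosphorylates UPF1, had an average log2 CPM of 8.60. The helicase Upf1 had 6.29. Upf3b, an adaptor to the exon junction complex, had 5.03, just inside the lowest average log2 CPM in the lists, 5.00, as were Cnot11 (5.06) and Ythdf1 (5.08). Several genes of this group were not listed, among them Upf2, Upf3a, Smg5 and Smg6.

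Proteins that bind AU-rich elements or carry CCCH zinc fingers gave the most members by number, with 13 of 25 annotated genes listed. Their share was 52%, below the 60% of the deadenylation genes, against 13.2% of all annotated protein-coding genes. Zfp36l2 (average log2 CPM 8.93), Zfp36l1 (8.80) and Zfp36 (8.01), which speed the decay of cytokine mRNAs, ranked 4, 2 and 6 per kb among the 43 members. The remaining annotated gene of that family, Zfp36l3, was not listed. Elavl1 had an average log2 CPM of 6.34, so the family that destabilises AU-rich mRNAs and this protein that stabilises them stood in the same list. Zc3hav1, the antiviral protein ZAP, had 7.72, and Zc3h12a, which encodes the RNase Regnase-1, had 5.44. The other Zc3h genes listed, Zc3h13, Zc3h7a, Zc3h18, Zc3h4, Zc3h15, Zc3h7b and Zc3h14, had average log2 CPM between 6.18 and 6.97.

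Of the genes for small-RNA silencing, the slicing Argonaute Ago2 was listed with an average log2 CPM of 7.77, whereas Ago1, Ago3 and Ago4 were not. All 3 Tnrc6 genes, whose GW182 proteins link Argonaute to CCR4-NOT, were listed, from 6.65 (Tnrc6c) to 7.76 (Tnrc6b). Pum2 was listed with 7.75. Of the poly(C)-binding proteins, Pcbp2 had 7.31 and Pcbp1 6.03, and Pcbp3 and Pcbp4 were not listed.

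N6-methyladenosine is written onto mRNAs by a methyltransferase complex and read by YTH proteins. Of the YTH readers, 4 of 5 were listed, against 13.2% of all annotated protein-coding genes. The nuclear reader Ythdc1 had an average log2 CPM of 7.47, and the cytoplasmic readers Ythdf3, Ythdf2 and Ythdf1 had 6.52, 5.38 and 5.08. Of 28 annotated Mettl genes, 0 were listed in either direction, among them Mettl3 and Mettl14, the core of the writer complex. Many Mettl proteins methylate proteins or other RNAs and not mRNA. Wtap and Virma, partners of that writer, and the eraser Alkbh5 were listed as lower, with average log2 CPM of 6.54, 6.40 and 6.55. They were 3 of 10 other annotated genes of this modification looked up. Among those not listed were the eraser Fto and the writer partners Rbm15, Rbm15b and Cbll1. Zfp362, a C2H2 zinc finger gene, matched only because its symbol begins with the letters and digits of Zfp36, and had 5.56.

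**Figure D3:**
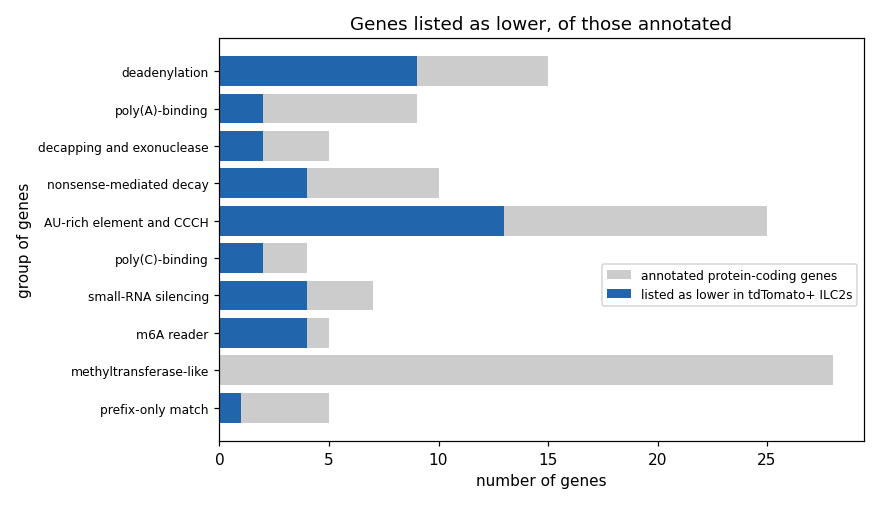
Number of genes (horizontal axis) in each of 10 groups: the full bar counts the annotated protein-coding genes whose symbol fits the group, and the blue part those listed as lower in tdTomato+ ILC2s. Of the bars shown, 13 of 25 genes are blue for AU-rich element and CCCH proteins, and the bar of the 28 Mettl genes has no blue part. Over all annotated protein-coding genes, 13.2% stood in the lower list.

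Over all groups, 43 of 115 annotated genes with such symbols were listed as lower (37.4%), against 13.2% of all annotated protein-coding genes. That background includes genes that ILC2s do not express, which cannot be listed, and the part this plays in the difference was not tested. A list of other mRNA decay genes, chosen with earlier results of these data known, gave a similar share, 28 of 83 annotated genes (33.7%), with 0 in the higher list and a median average log2 CPM of 6.47. The share was uneven within that list. Of the RNA exosome, which degrades RNA from the 3′ end, and its helpers, only Skiv2l was listed (1 of 19). Of the decapping factors 5 of 14 were listed, among them the helicase Ddx6 (average log2 CPM 7.85). Both Tut4 (7.54) and Tut7 (7.12), which add uridines to RNA ends, were listed, as were the granule proteins Caprin1 (8.15), G3bp1 (6.94) and G3bp2 (7.08) and the RNA-binding protein Ybx1 (8.37).

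Per kb of coding sequence the members' order changed. Btg1 came first with a log2 CPM per kb of 9.97, followed by Zfp36l1 (8.77), Pabpc1 (8.66), Zfp36l2 (8.39), Btg2 (8.29) and Zfp36 (8.07). The next member was Cnot6l at 7.27. Smg1, the fifth by level not divided by length, had a coding sequence of 10977 bases and ranked 25 of 43 per kb, and the Tnrc6 genes, with over 5 kb each, included the lowest, Tnrc6c at 4.14. The median of the members per kb was 5.36, below the 5.67 of 2844 lower genes with a RefSeq coding length, and 21 of the 43 were above it. The members' median therefore lay above that of the lower genes by level and below it per coding length, but with the union of all exons as the length the medians were 3.95 and 3.94. By that length the order of the highest members also changed, and Zfp36l1 (7.22), Zfp36l2 (7.12) and Pabpc1 (6.89) stood above Btg1 (6.61). The ranks given here by coding length thus depend on the length used. The median coding length of the members was 1983 bases, against 1548 for the lower genes. Across the 43 members, level and coding length had a Spearman's rho of 0.14, and across the 2844 lower genes one of 0.32, which is given as a description across genes of the same libraries.

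**Figure D4:**
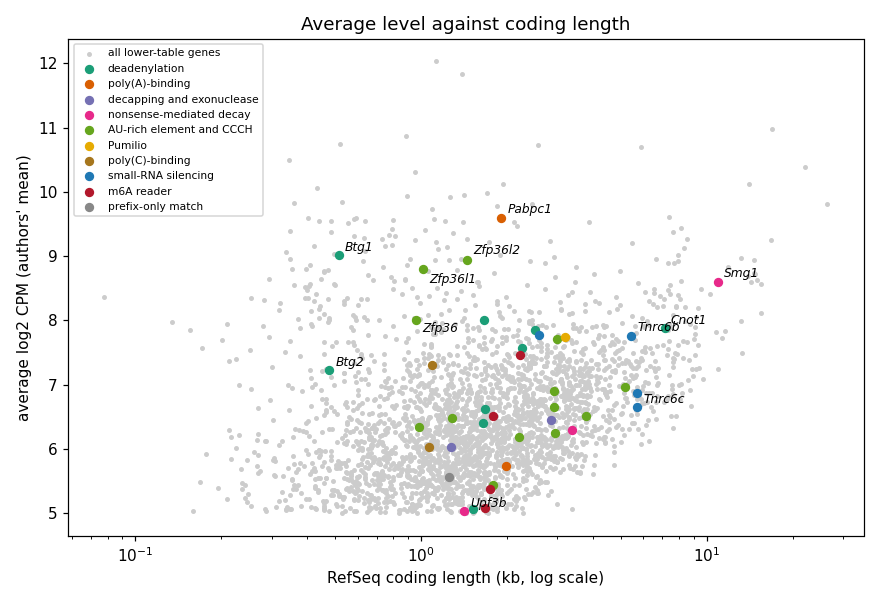
Average log2 CPM (vertical axis) against RefSeq coding length in kb (horizontal axis, log scale), 1 point a gene, with all lower-list genes in grey and 41 of the members coloured by group. Btg1, Btg2, Pabpc1 and the Zfp36 family have high levels for their coding length, and Smg1, with 10977 coding bases, lies at the far right of the members.

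Promoters from RefSeq (GRCm38), from 250 bases before to 50 bases after the annotated start, were found for 34 of the 43 members. Their median GC content was 65.2%, against 62.7% for lower genes and 55.2% for protein-coding genes of the higher list. A CpG observed to expected ratio over 0.6 was found in 32 of 34 (94.1%), against 79.7% of lower genes, 38.7% of the protein-coding higher genes and 36.4% of all promoters of the table. The core ETS motif CCGGAA was found on either strand in 13 of 34 members (38.2%), in 32.8% of lower genes, in 8.25% of the protein-coding higher genes and in 16.7% of all genes with a promoter. The letters AGATAA of the GATA motif occurred in 1 member (2.94%, Cnot2), against 7.21% of lower genes and 12.7% of all, and the KLF letters CCACACCC in 0 of 34, against 4.94% of lower genes. A match is not a binding site, and 34 promoters make each share coarse.

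The promoters of Btg1, Zfp36l1 and Btg2 are shown because these genes are among the 6 highest per kb and their windows hold the rarer matches. Btg1 and Zfp36l1 had the TATA box letters TATAAA at positions -26 and -29 from the start, and Zfp36l1 also had an AP-1 match (TGANTCA) at -129. The only other member with TATAAA, Pabpc4, had it at -155, and the motif was found in 8.97% of lower genes and 15.7% of all. Btg2 had the cyclic AMP response element TGACGTCA at -166, which was found in no other member, in 3.61% of lower genes and in 2.03% of all. AP-1 letters were found in 5.67% of lower genes and 8.97% of all. The capitals mark any of the 6 motifs searched, on both strands, and none of the matches in these windows overlap.
Btg1, chr10:96616751-96617050, plus strand: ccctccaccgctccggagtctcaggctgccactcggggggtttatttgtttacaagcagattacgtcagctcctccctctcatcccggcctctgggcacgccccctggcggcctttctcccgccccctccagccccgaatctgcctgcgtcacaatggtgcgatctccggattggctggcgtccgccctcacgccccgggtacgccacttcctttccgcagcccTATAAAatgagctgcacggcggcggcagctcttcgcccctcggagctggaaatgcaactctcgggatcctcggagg
Zfp36l1, chr12:80112964-80113263, minus strand: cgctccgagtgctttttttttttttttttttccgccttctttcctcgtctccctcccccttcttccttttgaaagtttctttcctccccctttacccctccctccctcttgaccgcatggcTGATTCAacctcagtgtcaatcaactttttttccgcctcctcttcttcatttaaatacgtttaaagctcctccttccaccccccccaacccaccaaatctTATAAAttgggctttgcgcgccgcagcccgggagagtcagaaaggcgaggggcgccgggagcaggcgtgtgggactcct
Btg2, chr1:134079106-134079405, minus strand: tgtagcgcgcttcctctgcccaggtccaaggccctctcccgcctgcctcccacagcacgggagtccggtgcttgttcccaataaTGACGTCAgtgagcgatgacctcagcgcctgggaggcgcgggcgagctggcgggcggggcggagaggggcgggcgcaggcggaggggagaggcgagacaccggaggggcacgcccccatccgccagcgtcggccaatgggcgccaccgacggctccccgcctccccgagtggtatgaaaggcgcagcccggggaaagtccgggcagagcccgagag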

How the data were processed

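The libraries held RNA of sorted lung ILC2s. The authors used FASTP for read quality, STAR for alignment to GRCm39, featureCounts with Ensembl genes for counting and edgeR for the comparison. The library kit keeps strand. The tools' versions, the scaling of libraries and the strand setting in counting are not given in the sources used here, and the labels name the build mm10. The deposited tables hold an average log2 CPM per gene over the libraries of that comparison. Their remaining number columns are the authors' own fold change, likelihood ratio, p-value and FDR, which were not used, so no test was made. They hold no TPM. The number of unused columns of single samples is 0.

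Members were taken by symbol. The members, groups and lists were chosen with earlier results of these data known. Every listed member could be named, except that 2 are not reported here and not drawn. Identifiers of all 43 were found in GENCODE M21 (GRCm38), which differs from the authors' annotation, and 0 of the 72 annotated symbols that were not listed stood in the lists under another name. For each gene, the complete protein-coding transcript with the longest coding sequence was used for its 3′ UTR. Coding length was that of the longest RefSeq protein. Promoters with several starts counted for a motif when any held it, and GC and CpG values used the first. The motif search was tested on simulated data. Python 3.11.15, numpy 2.4.6, pandas 2.3.3 and matplotlib 3.10.9 were used. No interval is given, since library depth is unknown. Alternatives were a stricter level, narrower lists of members, the mean and another length.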

Additional observations from a re-analysis of the deposited data

How the results depend on the processing

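All 43 members stood in the lower list, so narrower lists changed only their number: 36 with an average log2 CPM over 6, 42 without Zfp362 and 34 without the Mettl and Zc3h genes. The members' central level was 6.93 as a mean (6.55 for the lower genes), 6.93 as a median over genes above 6 (6.84) and 6.87 without the Mettl and Zc3h genes (6.39), against 6.65 (6.39) as reported. It was above that of the lower genes in each case. Per kb it was 3.95 by the union of all exons (3.94 for the lower genes) and 5.68 without the Mettl and Zc3h genes (5.67), against 5.36 (5.67) as reported, so the position of the members below the lower genes per length rested on the length used and on the Zc3h genes. No paired analysis was possible because the files hold no values of single libraries, and for the same reason no library could be left out. Reads from paralogs or processed pseudogenes, as of Pabpc1, can be divided in counting, and their part in the levels was not tested. Precision cannot be stated, since neither depth nor spread is known.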
